A study of Mus musculus with 9 samples.

Results

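Mouse embryonic stem cells that had lost Xpc lastingly were compared with cells that had lost it only recently, across all genes of the array. Xpc encodes a protein that finds damaged bases for nucleotide excision repair and, with its partners Rad23b and Cetn2, has also been described as a cofactor of Oct3/4 and Sox2, which hold stem cells in their state. Embryonic stem cells copy the inner cells of the blastocyst. In culture they move between a naive state, held by factors such as Nanog, Esrrb and Tbx3, and a primed state that resembles the later epiblast and is marked by Fgf5, Pou3f1 and Dnmt3b. The arrays used were the 3 titled Xpc_KO, called null here, and the 3 titled Xpc_f/f+Tx_day4, called induced here, which are 6 of the 9 arrays of the study. All 3 groups of the study are embryonic stem cells that carry or derive from floxed Xpc alleles, which Cre recombinase can delete. Induced cells were taken at day 4 of the induced deletion, null cells were a subclone without Xpc, and the remaining 3 arrays were floxed cells labelled -Tx, in which Xpc had not been deleted. Null cells were thus 1 subclone, so the age of the loss and the history of that clone cannot be told apart. No group was induced without losing Xpc, and which promoter drove Cre, the strain and the culture medium are not given in the sources used here.

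Each value is a log2 signal set against its own array's 75th percentile, so 0 is the level that 75% of the spots do not exceed and a difference of 1 is a doubling. Each array held 62976 spots, of which 59305 were not controls. Of these non-control spots between 47.6% and 57.9% lay well above background on the 6 arrays, and none was saturated. Tests covered 19734 genes, each by its brightest probe, whose signal stood well above background throughout the 3 null arrays or the 3 induced arrays. The labels do not tell if replicate arrays came from different cultures, and the p-values may therefore reflect no more than technical spread. The 3 induced arrays and null arrays 1 and 2 shared slide 3, while null array 3 sat with floxed array 3 on slide 2, so slide 3 alone gives a comparison within a slide. Floxed array 3, outside the comparison, lay nearer the null arrays for most genes that differed, and its position is given beside the main gene groups. The SD over genes of the difference between 2 arrays was 0.199 to 0.283 within induced, 0.304 to 0.369 within null and 0.4 to 0.509 between the groups. The 24 naive pluripotency factors of the marker list were all measured in both groups, with a summed level of 1110 to 1320 times the 75th percentile in induced and 1000 to 1140 times in null arrays.

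The Xpc transcript was low in both groups and their ranges overlapped. Xpc stood at -0.85, -1.53 and -1.36 in null arrays 1 to 3, at -1.09, -0.67 and -1.05 in induced arrays 1 to 3, and at 0.59, 0.56 and 0.17 in floxed arrays 1 to 3. Every null and induced array lay below every floxed array. The difference between null and induced was -0.31 (SE 0.20, limma adjusted p = 0.351 over all genes), and an exact permutation test over the 6 arrays gave p = 0.3, where 0.1 is the smallest two-sided p that 3 against 3 arrays allow. The single Xpc probe lies at chr6:91439856-91439915 of mm9 on the minus strand, and its place relative to the deleted segment is unknown here. Of its partners, Cetn2, a centrin, stood higher in null cells (3.11, 3.20 and 3.06 against 2.86, 2.64 and 2.68), a difference of 0.40 (limma adjusted p = 0.0391). That call was lost when null array 1, null array 2, null array 3, induced array 2 or induced array 3 was left out. Rad23b differed by 0.10 (limma adjusted p = 0.525), and its ranges overlapped.

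In all, 2767 of the 19734 genes passed the limma test at an adjusted p under 0.05, which is 14%. Of these 1249 (6.33% of all tested) were higher and 1518 (7.69%) lower in null cells. Changes of at least 2-fold were found for 150 higher and 319 lower genes, and of at least 4-fold for 6 and 34. Those of at least 2-fold were 2.38% of all genes tested. In none of the 2767 did the 2 groups overlap, as was the case for 37.3% of all genes tested. The median difference of all genes was 0.02, and no chromosome had a median outside -0.00 to 0.03. Among the genes that passed, 136 lower ones were not well above background on any null array and 19 higher ones on no induced array. For such a gene the fold is given below as "at least", a bound that sets each array of the lower group no lower than its own dimmest probe well above background. The bound holds for the reported processing only. Over the alternatives, the log2 difference smallest in size was -1.34 for Csf1, -1.35 for Ccn4, -0.72 for Cdx2, -0.35 for Igf2 and 0.49 for Irgm2. For genes well above background on 1 of 3 null arrays no bound is given. Their smallest log2 difference in size over the alternatives was -1.76 for Prss23, -1.11 for Tgfb2, -1.12 for Vldlr, -0.32 for Gata3 and -0.27 for Hand1. The count depended on single arrays, with 1518 genes without induced array 1, 1187 without induced array 2, 1292 without induced array 3 and 1327 without null array 2. It was 2062 without null array 1 and 2445 on slide 3 alone, where 2039 of the 2767 genes passed again. When the floxed arrays were fitted together with the other 6 it was 433. Bulk RNA cannot tell apart fewer cells of a type and less RNA per cell, and this applies to every difference below.

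The 42 gene lists described here are read against those shares. The shares include 6748 genes with predicted, clone or coordinate names, of which 558 passed. The share past the test among the other genes was therefore higher than 14%. The plot of list members past the test shows that lists of the primed epiblast, of cholesterol biosynthesis and of the interferon response lay on the higher side. Atf4 targets, tRNA synthetases, trophectoderm, matrix and contractile genes lay on the lower side. Counts of 1 to 3 members were unsteady: in the Bmp, LIF, Fgf, immediate early, imprinted, ephrin and blood lists such counts dropped by 1 or more when single arrays were left out.

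**Figure D1:**
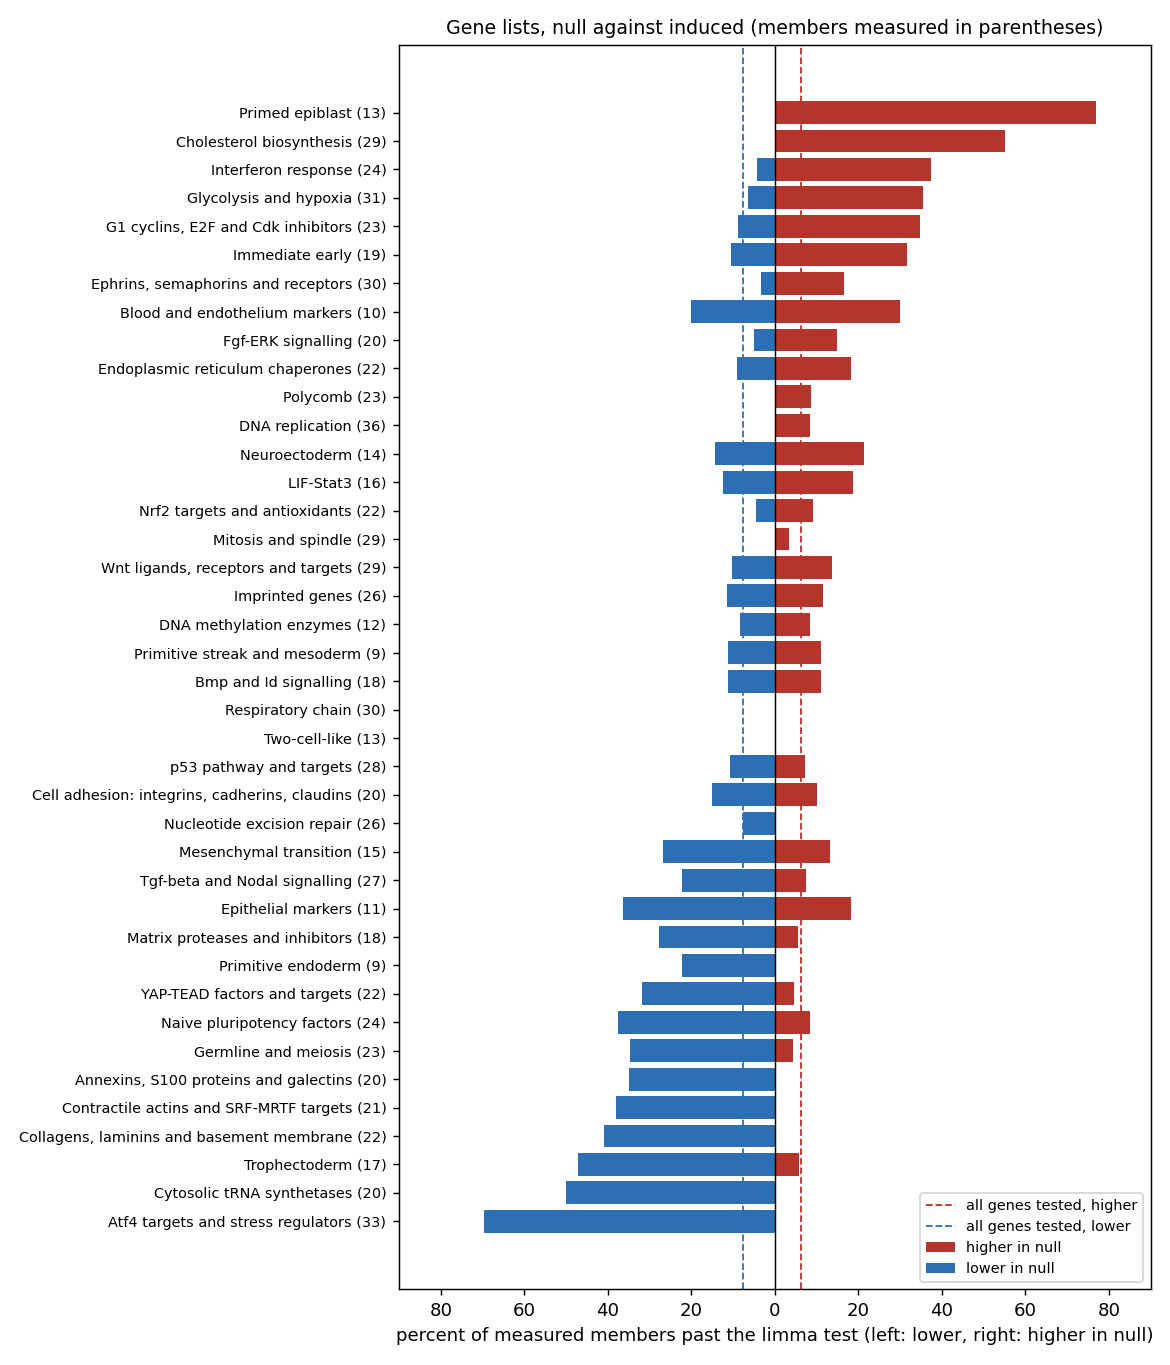
For each gene list with at least 9 measured members, the bars give the percent of members past the limma test (adjusted p under 0.05), to the right where higher and to the left where lower in null than in induced cells. Dashed lines mark the shares among all 19734 genes tested, 6.33% higher and 7.69% lower. The bar of the primed epiblast list reaches 76.9% on the higher side and that of the Atf4 list 69.7% on the lower side.

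Of the 2767 genes that passed, floxed array 1 lay nearer the null mean than the induced mean for 8.93% and floxed array 2 for 7.52%, but floxed array 3 for 74.5% (2062 genes). Floxed array 3 held Xpc at 0.17, above all 6 arrays of the comparison. It shared its slide with null array 3, and the part of the slide or of the culture in this was not tested. The gene groups divided by it. On the primed epiblast list floxed array 3 lay nearer null for 9 of the 10 members that passed, on the tRNA synthetase list for 10 of 10 and on the interferon list for 10 of 10. It did so for only 2 of 9 on the trophectoderm list, 1 of 8 on the contractile list and 1 of 6 on the fibroblast list.

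**Figure D2:**
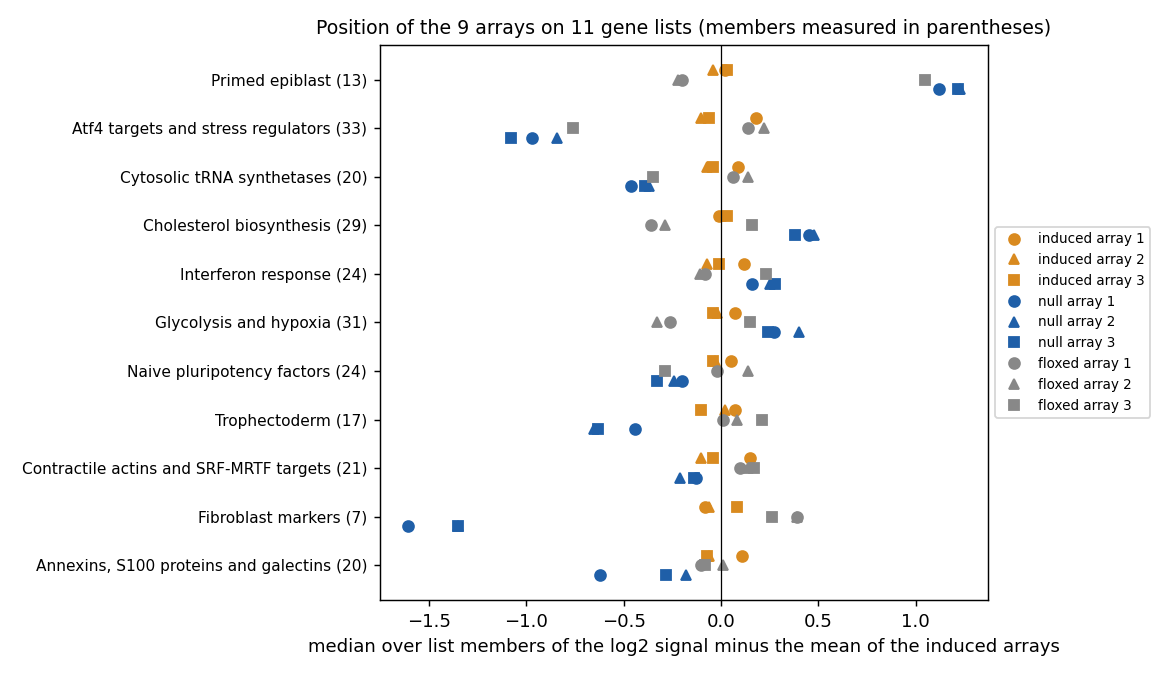
Each point is 1 array, placed at the median over the measured members of a list of its log2 signal minus the mean of the 3 induced arrays (x axis, log2). Floxed array 3, the grey square, lies at 1.05 on the primed epiblast list, beside the null arrays at 1.12 to 1.23, and at 0.21 on the trophectoderm list, apart from the null arrays at -0.65 to -0.44.

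Some naive pluripotency factors were lower in null cells, while of the core factors Pou5f1, Sox2, Klf4 and Zfp42 did not pass. Of 24 factors measured, 9 were lower, 2 were higher and 13 did not pass, with a median difference of -0.26. On slide 3 alone 8 were lower and 2 higher. Esrrb, a nuclear receptor of the naive network, stood at 6.21, 6.39 and 6.31 in null arrays and between 6.89 and 7.01 in the 3 induced arrays. All null values lay below all induced values, a fall of 1.59-fold (log2 difference -0.67, SE 0.09, limma adjusted p = 0.00569). Its second probe gave -0.37. Tbx3, a T-box factor that sustains self-renewal, stood at 2.51, 2.73 and 2.76 against 3.65, 3.81 and 3.58, a fall of 2.02-fold (-1.02, limma adjusted p = 0.00277). Dppa3, a maternal factor that guards DNA methylation and is variable among stem cells, stood at 1.14, 1.03 and 1.35 against 2.65, 2.11 and 2.16, the largest difference of the list at -1.14 (limma adjusted p = 0.00742). The Akt cofactor Tcl1 (-0.97) and the naive transcription factor Tfcp2l1 (-0.83) fell as well, with adjusted p-values of 0.00158 and 0.00264 in limma.

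Of the core factors other than Esrrb only Nanog passed, and narrowly. Nanog stood at -0.83, -0.98 and -0.79 in null arrays against 0.09, -0.46 and -0.33 in induced arrays, a difference of -0.63 (SE 0.15, limma adjusted p = 0.0378). Leaving out any 1 of the 6 arrays ended that call. Pou5f1, which encodes Oct3/4, ranged from 3.93 to 4.68 in null and from 4.32 to 5.44 in induced arrays, and these ranges overlap. Its difference of -0.51 had a limma adjusted p of 0.309. Sox2 (-0.21, adjusted p = 0.143), Klf4 (-0.28, adjusted p = 0.0857) and Zfp42 (-0.26, adjusted p = 0.1) did not pass in limma, although the groups of these 3 genes did not overlap. Klf4 did pass under 4 of 17 alternatives of processing, with a lowest limma adjusted p of 0.0275. Against the direction of the list, Gbx2, a homeobox factor downstream of Stat3, was higher in null cells by 0.71 (limma adjusted p = 0.0118), and so was Utf1, a chromatin factor of pluripotent cells, by 0.59 (limma adjusted p = 0.0124). Without induced array 2 neither Gbx2 nor Utf1 passed, and without induced array 3 Utf1 did not. Floxed array 3 lay nearer null for 9 of the 11 factors that passed, for instance at 6.08 for Esrrb and 2.19 for Tbx3, against 6.98 and 4.07 in floxed array 1.

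Genes of the primed epiblast rose together. Of 13 measured, 10 were higher in null cells, none was lower and all 13 had a positive difference, with a median of 1.19. Slide 3 alone also gave 10, and leaving out 1 array gave 8 to 10. Lef1, the Wnt effector that is switched on in the epiblast, stood at 2.53, 2.76 and 2.66 in null arrays against 0.62, 0.59 and 0.64 in induced arrays, a rise of 4.09-fold (2.03, SE 0.09, limma adjusted p = 0.000252). A second Lef1 probe gave 2.05. Its main probe lies at chr3:130926200-130926259 of mm9. Pou3f1, a POU factor of the epiblast and early neural cells, stood at 3.78, 3.55 and 3.63 against 2.11, 1.77 and 2.07, a rise of 3.19-fold (limma adjusted p = 0.000965). The growth factor Fgf5, the usual marker of priming, stood at 1.30, 1.17 and 1.19 against -0.24, -0.21 and -0.05, a rise of 2.61-fold (limma adjusted p = 0.000852). Fgf15, another secreted Fgf, was at 0.20, 0.07 and 0.01 against -1.40, -1.57 and -1.52, a rise of 3.01-fold (limma adjusted p = 0.000609). In these 4 genes the lowest null array lay more than 1 above the highest induced array on the log2 scale.

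Dnmt3b, the de novo DNA methyltransferase of the epiblast, rose 2.28-fold (limma adjusted p = 0.000865), from 5.60, 5.53 and 5.59 to 6.69, 6.80 and 6.79. It was 1 of 2 of the 12 DNA methylation enzymes that passed. The other was Mbd2, a methyl-CpG reader, which differed by -0.49 and no longer passed without induced array 2, induced array 3 or null array 2. Dnmt3a, its relative, overlapped between the groups (0.01, limma adjusted p = 0.978), and Zic2, a zinc finger factor of the epiblast, did too (0.01, limma adjusted p = 0.974). Floxed array 3 held Lef1 at 2.46, Fgf5 at 1.85 and Dnmt3b at 6.62, close to or above the null arrays, while floxed arrays 1 and 2 held Lef1 at -0.10 and -0.37 and Fgf5 at -0.73 and -0.68, below every induced array. Their part in the difference between null and induced cells was not tested. With the 3 floxed arrays in the fit, 2 of the 13 primed genes passed.

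**Figure D3:**
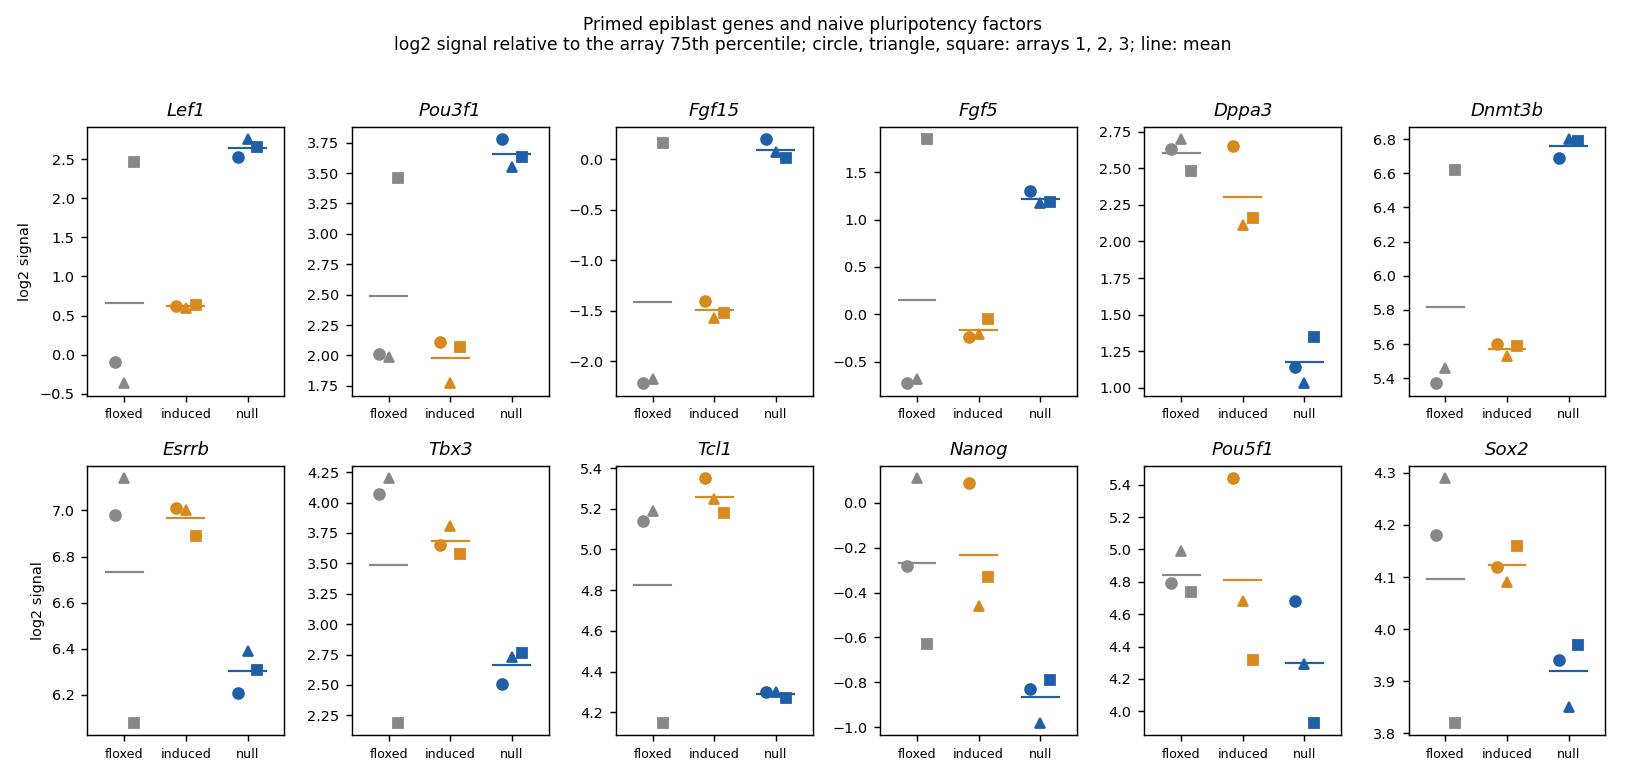
Log2 signal relative to the 75th percentile of the array (y axis, own scale in each panel) of 12 stem cell genes in floxed (grey), induced (orange) and null (blue) arrays, 1 point per array with the mean as a line. Lef1, Pou3f1, Fgf15, Fgf5 and Dnmt3b lie higher in null than in induced arrays, Dppa3, Esrrb, Tbx3, Tcl1 and Nanog lower, and the groups overlap for Pou5f1.

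Many targets and regulators of the integrated stress response were lower in null cells. In this response a shortage of amino acids or stress of the endoplasmic reticulum raises translation of Atf4, a transcription factor that then drives genes of amino acid uptake and synthesis and of tRNA charging. Many of its targets carry a C/EBP-ATF response element, searched here as TGATGNAA on both strands in the 250 bases before each gene's start. Of the 28 members measured whose promoter was in the RefSeq table (assembly GRCm38.p6), 7 held a match (25%), against 2.39% of the 10869 tested genes with a promoter. All 7 were among the 21 members with a promoter that passed the test. A match describes these letters only. The list is itself one of Atf4 targets and regulators, so a share above that of all genes was likely from the outset. The windows of the 3 members with the largest falls that held a match, and of Asns, are shown because they place the element beside the size of the change, with the match in capitals and each read along the gene's own strand.
Nupr1, chr7:126625547-126625606, minus strand: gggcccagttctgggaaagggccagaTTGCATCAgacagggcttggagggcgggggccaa
Chac1, chr2:119351023-119351082, plus strand: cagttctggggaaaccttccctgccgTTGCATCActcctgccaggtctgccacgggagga
Vldlr, chr19:27216794-27216853, plus strand: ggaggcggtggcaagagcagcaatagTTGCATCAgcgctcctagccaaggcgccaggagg
Asns, chr6:7693210-7693258, minus strand: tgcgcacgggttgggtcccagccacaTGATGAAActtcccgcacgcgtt
In the first 3 the match reads on the opposite strand of the gene, and in Asns on the gene's own strand.

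Of the 33 members measured, 23 were lower in null cells, none was higher and 10 did not pass, with a median difference of -0.93. Slide 3 alone gave 20 lower and 1 higher, and leaving out 1 array gave 17 to 22 lower. Nupr1, a stress-induced chromatin protein, stood at -0.73, -0.53 and -0.26 in null arrays against 2.87, 2.64 and 2.63 in induced arrays, 9.33-fold lower (-3.22, SE 0.14, limma adjusted p = 0.000252). Chac1, which degrades glutathione, stood at 0.01, -0.26 and 0.06 against 3.35, 2.96 and 3.07, 9.12-fold lower (limma adjusted p = 0.000252). The 2 groups lay about 3 apart on the log2 scale with no overlap. Vldlr, a lipoprotein receptor, was lower by 4.72-fold (limma adjusted p = 0.00188) and was well above background on 1 of 3 null arrays. Slc6a9, a glycine transporter, was lower by 3.81-fold (limma adjusted p = 0.000636).

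Atf4 itself fell 2.66-fold, from 7.08, 6.64 and 6.80 in induced arrays to 5.37, 5.48 and 5.42 in null arrays (limma adjusted p = 0.00161). Downstream of it the proapoptotic factor Ddit3 differed by -1.91, the pseudokinase Trib3 by -1.74 and the asparagine synthetase Asns by -1.21, all past the limma test. Asns stood at 5.31, 5.37 and 5.56 against 6.84, 6.54 and 6.50. Of the 20 cytosolic tRNA synthetases, which load amino acids onto tRNA, 10 were lower and none was higher, with a median of -0.40. Within slide 3 the counts were also 10 and 0, and leaving out 1 array gave 9 to 10. The cysteine enzyme Cars fell 2.57-fold (limma adjusted p = 0.00106), the asparagine enzyme Nars 2.17-fold and the serine enzyme Sars 2.08-fold. At the other end of the list Farsa, a subunit of the phenylalanine enzyme, was at 0.35 and did not pass. Chaperones of the endoplasmic reticulum, which another arm of the stress response controls, did not fall as a list: of 22 measured, 4 were higher and 2 lower, with a median of 0.18. The chaperone Hspa5 was higher by 0.51 (limma adjusted p = 0.0173), whereas Herpud1, a factor of protein disposal that Atf4 also induces, was 2.3-fold lower (limma adjusted p = 0.00148). The 4 higher members fell to 2 without induced array 1 or null array 1, to 1 without induced array 3 or null array 2 and to 0 without induced array 2.

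Floxed array 3 again lay near the null arrays, at 0.31 for Nupr1, 0.68 for Chac1 and 6.08 for Atf4, against 3.17, 3.58 and 7.01 in floxed array 1. Its median on the Atf4 list was -0.76 relative to the induced mean, between the null arrays (-1.08 to -0.84) and the induced arrays (-0.10 to 0.18). With the 3 floxed arrays in the fit, 10 Atf4 list members and none of the synthetases passed.

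**Figure D4:**
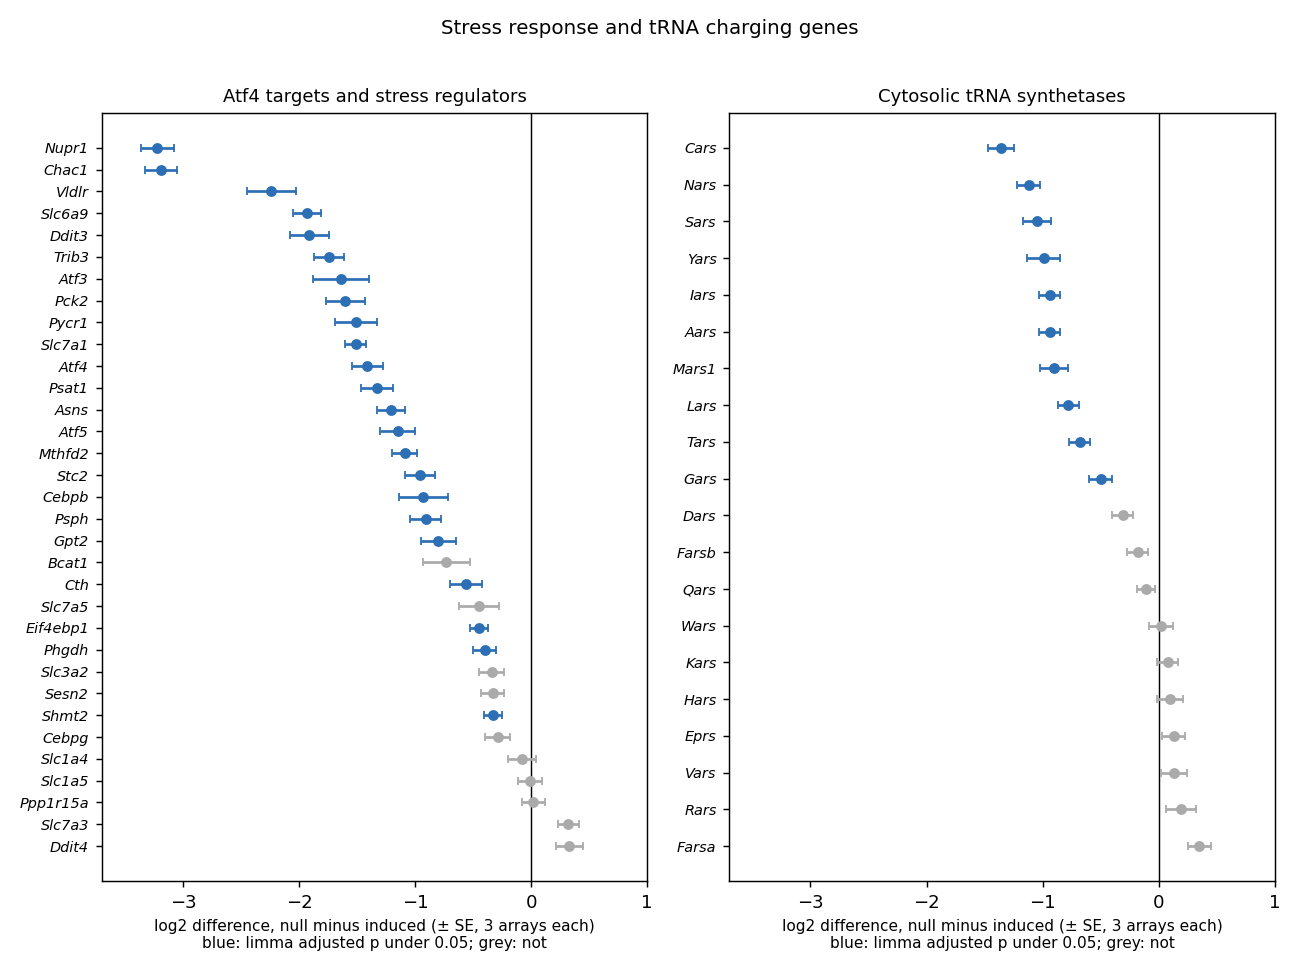
Log2 differences of null minus induced cells (x axis) with their SE, from 3 arrays each, for the 33 measured members of the Atf4 list (left) and the 20 cytosolic tRNA synthetases (right), blue where the limma adjusted p was under 0.05. The differences run from -3.22 (Nupr1) to 0.33 (Ddit4) on the left and from -1.36 (Cars) to 0.35 (Farsa) on the right.

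Some genes of the trophectoderm, the outer lineage of the blastocyst, were lower in null cells, and here floxed array 3 stayed with the induced arrays. Of 20 listed, 17 were measured, 11 of which other lists also hold. Of the 17, 8 were lower and 1 higher, with a median of -0.60. That median was -0.03 over the 13 members above background on all 6 arrays, of which 5 were lower and 2 higher, -0.17 with normexp background correction and -0.23 with the deposited value table. On slide 3 alone the counts were 7 and 1. The count of lower members was 5 without induced array 1, induced array 2 or null array 2. Cdx2, the homeobox factor that specifies this lineage, stood at -1.94, -2.31 and -3.11 in induced arrays and at -5.68, -5.11 and -5.64 in null arrays, on none of which it was well above background. It was at least 2.74-fold lower (limma adjusted p = 0.00218), and the 3 floxed arrays held it at -2.61, -2.12 and -1.16. The Cdx2 probe lies at chr5:148112547-148112606 of mm9. The keratin Krt18, a filament protein of simple epithelia, stood at 3.89, 3.95 and 4.18 against 5.70, 5.16 and 5.26, a fall of 2.58-fold (limma adjusted p = 0.00368). Its partner Krt8 fell by 0.98 on the log2 scale (limma adjusted p = 0.00678), and Krt19, another keratin, fell by 0.98 too (limma adjusted p = 0.00332), with no overlap of the groups in either.

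Other trophectoderm regulators were near background in null cells. Gata3 was lower by 3.04-fold (limma adjusted p = 0.0285) and Hand1 by 2.23-fold (limma adjusted p = 0.0113), each well above background on 1 of 3 null arrays. The call of Gata3 was lost without null array 2, null array 3 or any 1 of the induced arrays. That of Hand1 was lost without induced array 1 or null array 2, with normexp background correction and with the deposited value table. Eomes, which marks both trophectoderm and mesendoderm, was the 1 higher member, at -0.37, -0.06 and -0.03 in null arrays against -0.96, -0.83 and -0.78 (0.71, limma adjusted p = 0.0119), and did not pass without null array 2. Of the other embryonic lineages, primitive endoderm had 2 lower of 9 measured among 18 listed (the collagens Col4a1 and Col4a2). Its factors Gata6, Sox17 and Foxa2 were not among the genes measured. Primitive streak and mesoderm had 1 higher and 1 lower of 9 measured among 18 listed (Eomes and Hand1 again), and T, Mixl1 and Mesp1 were not measured. Neuroectoderm had 3 higher and 2 lower of 14 with a median of 0.15, and only 1 or 2 higher without any 1 array other than null array 3. Its clearest member was Nes, the intermediate filament of neural progenitors, between 1.90 and 2.17 in the 3 null arrays and between 0.86 and 1.05 in the 3 induced arrays, higher by 2.07-fold (limma adjusted p = 0.00218).

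Actins and other contractile genes, many of them targets of the serum response factor Srf and its cofactor MRTF, fell in part. Of 21 measured, 8 were lower and none was higher, with a median of -0.26, and slide 3 alone also gave 8. Without induced array 3 the count was 5 and the median -0.07, and without null array 2 the median was -0.13. It was -0.11 with normexp background correction and -0.10 with the deposited value table. Acta2, the smooth muscle actin, stood at 1.81, 1.39 and 1.35 in induced arrays and at -1.37, -1.39 and -1.13 in null arrays, 7.03-fold lower (-2.81, SE 0.15, limma adjusted p = 0.000508). Floxed arrays held it at 2.55, 2.69 and 1.53. Its probe lies at chr19:34316060-34316119 of mm9. The actin-binding protein Tagln fell 2.75-fold (limma adjusted p = 0.00301) and Fhl2, a LIM cofactor, 3.91-fold (limma adjusted p = 0.00122). The skeletal actin Acta1 fell 3.38-fold (limma adjusted p = 0.0138) and did not pass without null array 2. Srf itself was at 0.33 and did not pass (limma adjusted p = 0.0975).

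A CArG box, the motif that Srf binds, lay in the 250 bases before the start of 8 of the 19 contractile genes with a promoter in the table (42.1%), against 1.45% of the tested genes. The list is itself one of contractile actins and Srf targets, so a higher share was likely from the outset. The box lay in 2 of the 7 genes with a promoter that passed, Fhl2 and Acta1. The rest of the 8 genes with a box did not pass, Srf among them. A box was thus no more common among the genes that passed than in the list. The windows of Acta1 and of the match nearest to a start of Fhl2, which held 2, are shown on GRCm38.p6 with the box in capitals, because these were the lower genes with a box.
Fhl2, chr1:43163962-43164018, minus strand: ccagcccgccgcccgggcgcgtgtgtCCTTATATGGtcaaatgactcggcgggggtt
Acta1, chr8:123894813-123894874, minus strand: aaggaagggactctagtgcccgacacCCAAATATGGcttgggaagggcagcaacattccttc
Targets and factors of the Hippo pathway, which ends in Yap and Tead, moved less as a list, with 7 lower and 1 higher of 22 and a median of -0.10. That median was 0.01 among members above background on all 6 arrays, and the lower count was 4 without induced array 1 or induced array 3. The muscle cofactor Ankrd1 was at least 1.85-fold lower (limma adjusted p = 0.000508) and the clotting receptor F3 was 2.21-fold lower. Of the best known targets, Ccn1 (-0.34, limma adjusted p = 0.0746) and Ccn2 (-0.19, limma adjusted p = 0.205) did not pass.

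Several collagens were lower in null cells, while most members of their list did not pass. Of 22 measured members of the list of collagens, laminins and basement membrane, 9 were lower, none was higher and 13 did not pass, with a median of -0.08. The count was 6 on slide 3 alone and 5 without induced array 2, induced array 3 or null array 2. Col1a1, a chain of type I collagen, stood at -0.91, -0.77 and -0.72 in induced arrays and at -3.19, -2.77 and -2.98 in null arrays, 4.52-fold lower (limma adjusted p = 0.000594). Its partner chain Col1a2 was 3.26-fold lower (limma adjusted p = 0.00291). Col4a2, of the basement membrane, was 2.79-fold lower (limma adjusted p = 0.000912), from -0.37, -0.33 and -0.31 to -1.63, -1.90 and -1.92. In all 3 genes the groups lay more than 1 apart on the log2 scale.

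Of 16 fibroblast markers 7 were measured, all of which other lists also hold, with 5 lower, 1 higher and a median of -1.46. The median was -0.42 with normexp background correction and -0.49 with the deposited value table, with 4 lower and 1 higher under each. Their summed level was 17.8 to 24.7 times the 75th percentile in induced, 8.63 to 10.4 in null and 27.6 to 31.1 in floxed arrays, so every null array lay below every other array. The defining markers Pdgfra, Pdgfrb, Twist1, Prrx1, Postn, Lum, Dcn, Fap and Col6a3 were not among the genes measured in either group. The higher member was Thy1, a surface glycoprotein, at 1.27, 1.58 and 1.36 against 0.23, -0.08 and 0.05 (1.34, limma adjusted p = 0.00175). Epithelial markers summed to 76.2 to 106 in induced and 60.1 to 64.8 in null arrays, with 4 keratins lower and 2 of 11 members higher, and Epcam (0.22) and Cdh1 (0.27) did not pass. Other lists also hold 8 of these 11, including keratins described above with the trophectoderm. Blood and endothelium markers summed to 23.1 to 31.4 in induced and 23.5 to 40 in null arrays, with 3 higher and 2 lower of 10, and Cdh5, Ptprc and Spi1 were not measured. The part of such cells in the differences of matrix, keratin and contractile genes was not tested.

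Around the matrix, 5 of 18 proteases and inhibitors were lower and 1 was higher, with a median of -0.24 (-0.15 with normexp background correction). The serine protease Prss23 stood at -0.39, -0.64 and -0.57 in induced arrays and at -3.53, -3.96 and -3.84 in null arrays, 9.49-fold lower (limma adjusted p = 0.000252) and well above background on 1 of 3 null arrays. The protease inhibitor Timp2 fell too (-1.17, limma adjusted p = 0.00478). Of 20 annexins, S100 proteins and galectins 7 were lower and none was higher, with a median of -0.39. The calcium-dependent membrane proteins Anxa1 (-1.53, limma adjusted p = 0.00311), Anxa3 (-1.55, limma adjusted p = 0.00796) and Anxa5 (-1.22, limma adjusted p = 0.00102) led it. Floxed array 3 lay nearer null for 4 of the 9 collagen list members that passed, 2 of 6 proteases and inhibitors and 3 of 7 annexin list members. Mesenchymal transition genes were divided, with 4 lower and 2 higher of 15, and the lower count was 1 without induced array 2 or null array 2 and 2 without induced array 1. The mesenchymal factor Twist2 was at least 1.51-fold lower. Adhesion genes had 3 lower and 2 higher of 20, fewer when any 1 array was left out, and the cadherin Cdh11 fell by 1.11 on the log2 scale (limma adjusted p = 0.00168).

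**Figure D5:**
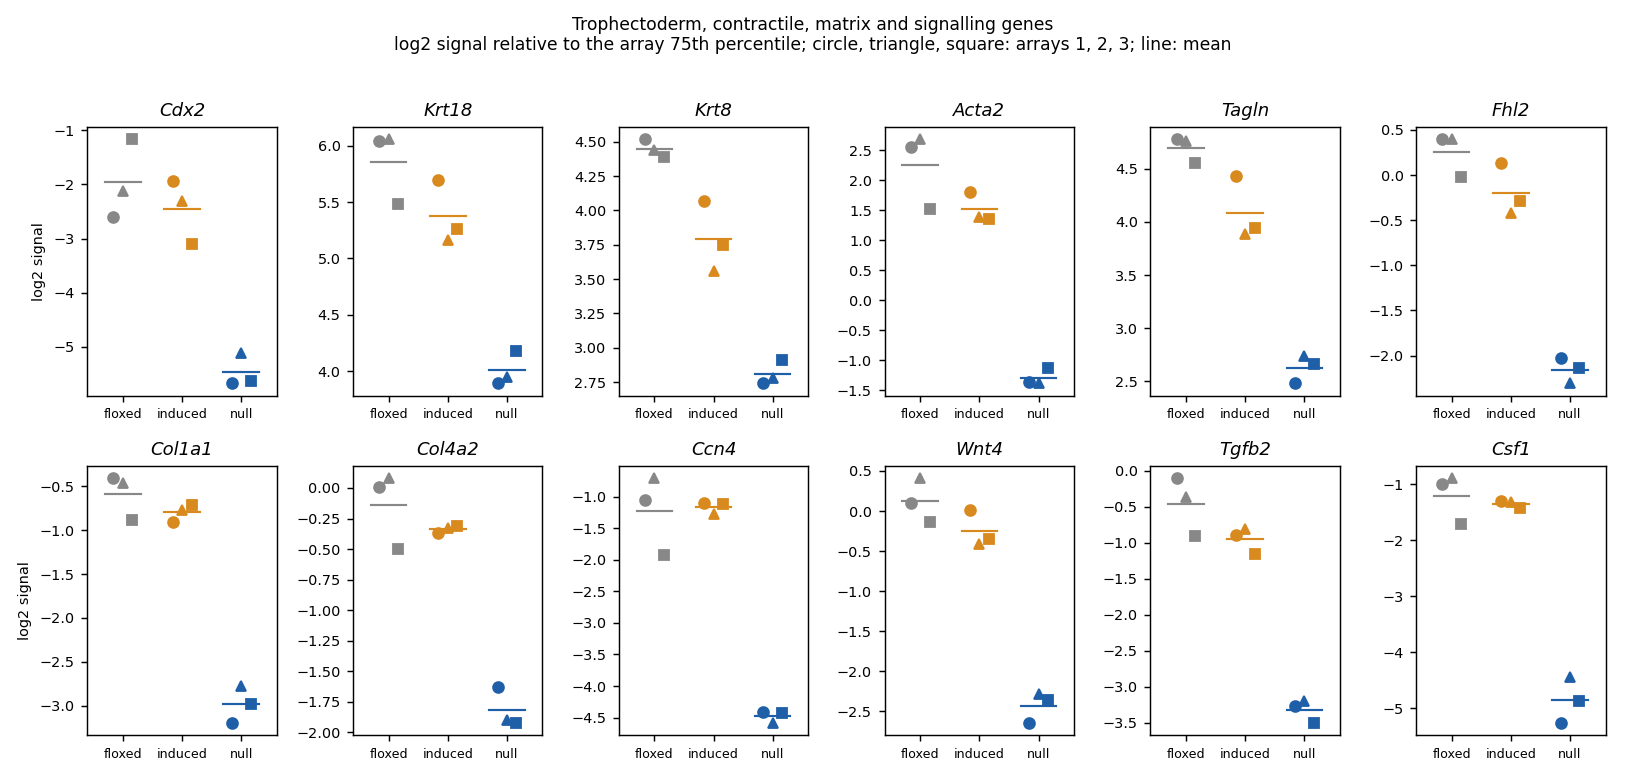
Log2 signal relative to the 75th percentile of the array (y axis, own scale in each panel) of 12 genes of trophectoderm, contraction, matrix and signalling, 1 point per array with the mean as a line. The 3 null arrays (blue) lie below the 3 induced (orange) and the 3 floxed (grey) arrays in each panel, and Cdx2, Ccn4 and Csf1 were not well above background on any null array.

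Secreted signals changed in both directions. Of 27 genes of the Tgf-beta and Nodal pathway, 6 were lower and 2 higher, with a median of -0.09. Tgfb2, the ligand with the largest change, stood at -0.89, -0.80 and -1.16 in induced arrays and at -3.27, -3.20 and -3.50 in null arrays, 5.19-fold lower (limma adjusted p = 0.000508) and above background on 1 of 3 null arrays. The activin subunits parted: Inhba was at least 1.42-fold lower (limma adjusted p = 0.00196), and Inhbb was 2.16-fold higher (limma adjusted p = 0.0051). Skil, a repressor of Smad signalling, was higher (0.81, limma adjusted p = 0.00224), and Nodal overlapped between the groups (0.03). Of 18 Bmp and Id genes 2 were higher and 2 lower. Id1, an inhibitor of differentiation induced by Bmp, rose by 0.78 (limma adjusted p = 0.0051), from 2.54, 2.27 and 2.50 to 3.19, 3.28 and 3.18, while Id4 was lower by 1.54-fold (limma adjusted p = 0.0104).

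The Wnt list held 4 higher and 3 lower of 29 genes, with a median of 0.05. Ccn4, a matrix protein induced by Wnt signals, stood at -1.10, -1.27 and -1.12 in induced arrays and at -4.41, -4.58 and -4.42 in null arrays, at least 6.7-fold lower, with the smallest limma adjusted p of the named genes at 8.15e-05. The ligand Wnt4 was 4.53-fold lower (limma adjusted p = 0.000852), and its other probe gave -1.22. On the higher side stood Lef1, described above, and the cyclin Ccnd1 (0.92, limma adjusted p = 0.00352). Of 20 Fgf-ERK genes 3 were higher, Fgf15, Fgf5 and the ETS factor Etv4 (0.75, limma adjusted p = 0.00378), and 1 was lower. Of 16 LIF-Stat3 genes 3 were higher and 2 lower, and Stat3 itself overlapped (0.06). The kinase Pim2 rose 3.41-fold (limma adjusted p = 0.0021), from -0.08, -0.73 and -0.40 to 1.55, 1.31 and 1.25. Among 19 immediate early genes 6 were higher and 2 lower, with a median of 0.33. Myc rose 2.05-fold (limma adjusted p = 0.0078), from 0.17, 0.32 and 0.35 to 1.63, 1.26 and 1.05, and Egr1, a zinc finger factor, rose 1.84-fold (limma adjusted p = 0.00651). Of 30 ephrins, semaphorins and receptors 5 were higher and 1 lower, led by Sema6a (1.37, limma adjusted p = 0.0098). Of the members that passed, floxed array 3 lay nearer null for 2 of 8 on the Tgf-beta list, 4 of 4 on the Bmp list, 3 of 7 on the Wnt list, 4 of 5 on the LIF list and 2 of 8 on the immediate early list.

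Many genes of cholesterol biosynthesis, which the factor Srebf2 controls together, were higher by a small amount. Of 29 measured, 16 were higher, none was lower and 13 did not pass. A positive difference was found for 26, with a median of 0.44 and a range from -0.07 to 0.83. Idi1, which makes the building block of sterols, stood at 3.90, 3.94 and 3.79 in null arrays against 2.96, 3.03 and 3.14 in induced arrays, a rise of 1.78-fold (limma adjusted p = 0.00309). Scd1, a fatty acid desaturase that the list also holds, rose 1.65-fold (limma adjusted p = 0.00542). Dhcr7, the last enzyme of the pathway, was higher by 0.75 (limma adjusted p = 0.0222), but only null array 3 could be left out without losing that call. Slide 3 alone gave 15 higher, whereas the count was 9 without induced array 1, 8 without induced array 2 or induced array 3, 12 without null array 1 and 10 without null array 2. With the floxed arrays in the fit it was 0. Floxed array 3 had a list median of 0.16 relative to the induced mean, between the null arrays at 0.38 to 0.48 and floxed arrays 1 and 2 at -0.36 and -0.29. A sterol regulatory element, searched as TCACNCCA on both strands, lay before 3 of the 19 members with a promoter (15.8%) and 4.03% of all tested genes. Here too a higher share was likely from the outset, as the list is one of genes that Srebf2 controls.

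Glycolysis and hypoxia genes were higher in part, with 11 higher and 2 lower of 31 and a median of 0.31. The lactate exporter Slc16a3 rose 2.86-fold (limma adjusted p = 0.000727), from 3.85, 3.70 and 3.76 to 5.16, 5.38 and 5.33, and floxed array 3 held it at 5.03 against 3.02 and 2.75 in floxed arrays 1 and 2. Egln3, the hydroxylase that marks hypoxia-inducible factors for decay, rose 1.95-fold (limma adjusted p = 0.0034). Against the list, the growth factor Vegfa was 2.23-fold lower (limma adjusted p = 0.000937), and the glucose transporter Slc2a3 was lower by 1.48-fold (limma adjusted p = 0.00923). Slide 3 alone gave 9 higher, and the count was 7 without induced array 1, 6 without induced array 2 or null array 2 and 5 without induced array 3. None of the 30 subunits of the respiratory chain passed in limma, with a median of -0.10. Nrf2 targets and antioxidants had 2 higher and 1 lower of 22, and 0 without any 1 of the induced arrays or null array 2.

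Some interferon response genes were higher, led by the immunity-related GTPases. Of 34 listed, 24 were measured, 9 of them higher, 1 lower and 14 not past the test, with a median of 0.23. Slide 3 alone gave 8 and 1, and leaving out 1 array gave 6 to 8 higher. Irgm1 stood at 1.22, 1.18 and 1.12 in null arrays against -0.67, -0.95 and -0.69 in induced arrays, a rise of 3.84-fold (limma adjusted p = 0.000508), and its relative Igtp rose 2.87-fold (limma adjusted p = 0.000594). Irgm2 was at least 2.87-fold higher (limma adjusted p = 0.0114) and well above background on no induced array, a call that was lost without null array 2. Oasl2, an antiviral protein, rose by 1.31 (limma adjusted p = 0.00697). The 1 lower member was B2m, the light chain of class I antigen-presenting molecules, at 1.42, 1.54 and 1.52 against 2.37, 2.19 and 2.19 (-0.75, limma adjusted p = 0.00426). Floxed array 3 lay nearer null for all 10 members that passed.

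Nucleotide excision repair genes, the pathway in which Xpc acts, had no more members past the test than all genes. Of 26 measured, 2 were lower and none was higher (7.69% against 14% of all genes), with a median of 0.04. Xpa, which checks the lesion after Xpc has bound, was 2.07-fold lower, at 2.04, 2.13 and 1.99 in null arrays against 3.23, 3.03 and 3.04 in induced arrays (limma adjusted p = 0.00175), and floxed array 3 held it at 2.33 against 3.24 in floxed array 1. The nuclease subunit Ercc1 was lower by 1.29-fold (limma adjusted p = 0.0371), a call that was lost when any 1 array was left out. Of 28 genes of the p53 pathway 3 were lower and 2 higher, with a median of -0.12. The stress cytokine Gdf15, which Atf4 also induces, stood at -1.09, -0.68 and -0.96 against 1.18, 0.62 and 0.86, 3.48-fold lower (limma adjusted p = 0.00186). Trp53 (0.09) and, by its brightest probe, its target Cdkn1a (-0.18) overlapped between the groups. A second Cdkn1a probe, well above background on 3 of the 6 arrays, gave -1.62, so the probes of Cdkn1a differ in size. The p53 counts were smaller without any 1 array.

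Genes of the G1 phase rose in part while those of replication and mitosis differed little. Of 23 G1 cyclins, E2F factors and Cdk inhibitors 8 were higher and 2 lower, with a median of 0.13, and 7 were higher on slide 3 alone. The higher count was 5 without null array 1 or any 1 of the induced arrays and 4 without null array 2. E2f2, an activator of S phase genes, stood at 2.77, 2.94 and 2.73 against 1.43, 1.66 and 1.72, a rise of 2.31-fold (limma adjusted p = 0.00178). The cyclin Ccne1, which drives entry into S phase, rose 1.73-fold (limma adjusted p = 0.00322). The inhibitor Cdkn2a was 1.68-fold lower (limma adjusted p = 0.00719). Of 36 replication genes 3 were higher, of 29 mitosis genes 1 and of 23 Polycomb genes 2, with medians of 0.01, 0.05 and -0.01, and none was lower. Of these 6 only Tk1, a thymidine kinase (0.62, limma adjusted p = 0.0072), kept its call whichever array was left out. Floxed array 3 lay nearer null for 5 of the 10 G1 list members that passed and for 3 of the 5 on the p53 list.

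Germline genes tended lower, with 8 lower and 1 higher of 23 and a median of -0.31, but 6 lower on slide 3 alone, 5 without null array 1 and 1 or 2 when any other single array was left out. Stra8, the gate to meiosis, stood at 0.42, 0.20 and 0.01 in induced arrays and at -1.26, -1.47 and -1.07 in null arrays, 2.79-fold lower (limma adjusted p = 0.0021). Among 26 imprinted genes 3 were higher and 3 lower. The growth factor Igf2 was at least 2.1-fold lower (limma adjusted p = 0.0132, lost without induced array 1), its clearance receptor Igf2r was 1.63-fold lower (limma adjusted p = 0.00447) and Mest, a paternally expressed hydrolase, was 2.13-fold higher (limma adjusted p = 0.00128). None of the 13 genes of the two-cell-like state passed in limma, and 11 of them had a negative difference (median -0.17). Floxed array 3 lay nearer null for 6 of the 9 germline and 4 of the 6 imprinted genes that passed.

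The largest single changes are ranked among genes with a symbol that is no predicted, clone or coordinate name. Csf1, a growth factor of macrophages, stood at -1.30, -1.31 and -1.43 in induced arrays and at -5.26, -4.45 and -4.88 in null arrays, at least 5.89-fold lower (limma adjusted p = 0.000508). The other 14 of the 15 largest falls were Ccn4, Prss23, Nupr1, Chac1, Cdx2, Acta2, Ankrd1, Tgfb2, the chloride channel Clic6 (-2.33, well above background on 1 of 3 null arrays), and Mroh4, Ctla2a, the alcohol dehydrogenase Adh1, Cep112 and Fads6. The last 5 were well above background on no null array, with bounds between 1.77-fold and 3.21-fold. The calls of Ctla2a and Fads6 were lost with normexp background correction and with the deposited value table. Without null array 2 another probe stood for Fads6, at 0.83. Among the 15 largest rises, Edn2, an endothelin peptide, stood at -0.44, -0.32 and -0.61 in null arrays against -2.71, -2.70 and -2.74, 4.79-fold higher (limma adjusted p = 0.000252). Skor1, a corepressor of neurons, was 6.28-fold higher (limma adjusted p = 0.00411) and above background on 2 of 3 induced arrays. The chemokine Cxcl12 (1.89), the zinc finger factor Wt1 (1.89), the calcitonin receptor Calcr (1.79), Vrtn (1.77) and the GTPase Rab19 (1.75) rose on all 3 arrays without overlap. Tcerg1l and Rasgrp3, well above background on no induced array, were at least 2.12-fold and 2.13-fold higher, the first not without null array 2. The calls of the protease Mmp25 (2.20) and of Gbp11 (1.76), both above background on 1 of 3 induced arrays, did not hold on slide 3 alone (adjusted p = 0.0745 and 0.0597 in limma) or without null array 1 or null array 2. That of Mmp25 was also lost without induced array 3, and that of Gbp11 without induced array 1 or induced array 2. Floxed array 3 lay nearer null than induced for all 15 of the largest rises and for 7 of the 15 largest falls, while floxed arrays 1 and 2 did so for none of the 30.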

How the data were processed

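The samples were 9 one-colour Agilent arrays of mouse embryonic stem cells, 3 per group, of which 6 entered the comparison. The deposited files hold each spot's intensity as the processed signal of Agilent Feature Extraction 10.7.3.1, per the submitters' processing notes and the file headers, which the authors' scanner software had already corrected for background. The deposited value table of the series, used as an alternative, equalled the mean signal, which is not background-corrected, for 100% of spots on each array. Further deposited columns, of the kind other, are yes or no marks per spot (well above background, saturated, outlier) per the file headers. After removal of controls and outliers, log2 was taken and each array's 75th percentile was subtracted. Spots of a probe were averaged, probes well above background on all 3 arrays of a group were kept, and the brightest probe stood for its gene name. A fit with lmFit and eBayes (limma 3.58.1, R 4.3.3) used the 6 arrays, with Benjamini-Hochberg adjustment over 19734 genes and a threshold of 0.05. In simulated data with 200 of 19734 genes changed, 76% of changes of log2 1 and 95% of log2 2 were recovered, with 6.04% false calls. The simulated noise was independent between arrays, without a shared slide or culture effect, and fewer genes were changed than passed here. These rates therefore do not measure recovery or false calls in the real arrays. Columns that could be tied to no sample numbered 0. The number of arrays limits the precision.

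Genes were named by a rule: Xpc with Rad23b and Cetn2, the factors Esrrb, Klf4, Nanog, Pou5f1, Sox2 and Zfp42, the 15 largest rises and 15 largest falls without overlap among genes with no predicted, clone or coordinate name, and per list up to 4 members past the threshold in each direction and up to 2 defining members that did not pass. Atf4, Asns, Ddit3, Trib3, Farsa and Ddit4 lie outside it and were picked once their values had been seen. The comparison, the gene lists and the rule were chosen with earlier results of these data known. Alternatives covered normalization, background correction, the deposited value table, the filter, the probe of a gene, the arrays in the fit, the variance model, the slide, the replicate number and each array left out. Replicate numbers were checked as pairs: deviations of same-numbered arrays correlated at -0.10, -0.03 and -0.11 over genes. No pairing by number showed in these values, but so few arrays cannot exclude one, and the labels do not give it. Probe positions are those of the files, on mm9, and exons and UTRs were not analysed here. A few genes that the rule would name are not reported here.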

Additional observations from a re-analysis of the deposited data

How the results depend on the processing

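Of the counts of genes that differed, those under quantile normalization, normexp background correction, the deposited value table, members above background on all 6 arrays, the mean of probes, trend and robust variance and slide as a fixed or random block stayed within 1.5 times the reported 2767. Without a filter on dim probes 612 genes passed (220 higher, 392 lower), and with all 9 arrays in 1 fit 433 (131 higher, 302 lower). Of those called, 45.1% were higher as reported, 35.9% without the filter and 30.3% with all 9 arrays. With the replicate number as a block 1345 genes passed (549 higher, 796 lower). Whether the numbers mark paired samples is not known. Leaving out 1 array gave 1187 to 2445 genes, 464 to 1042 higher and 680 to 1403 lower, and an Xpc difference of -0.5 to -0.16 that never passed. Of 180 named or listed genes (150 where background had to be passed on all 6 arrays), the call was lost for 109 with all 9 arrays in 1 fit, 94 without the filter, 47 with the replicate block, 22 with slide as a fixed block and 23 to 56 with 1 array left out, the most without null array 2. Directions reversed for Fads6, which ranged from -2.36 to 0.83 with 1 array left out, the latter without null array 2, where another probe stood for it, and for the YAP-TEAD list median, at 0.01 among members above background on all 6 arrays. List medians near 0 also changed sign: epithelial markers from 0.09 to -0.07 on slide 3 alone, primitive streak from -0.02 to 0.11 and mesenchymal transition from -0.04 to 0.04 above background on all 6 arrays, adhesion from -0.03 to 0.02 on slide 3 alone, Polycomb from -0.01 to 0.05 on slide 3 alone and DNA replication from 0.01 to -0.01 with normexp. The cause of the other shifts was not tested. Genes well above background on no array of 1 group have only bounds on their folds, and these bounds hold for the reported processing only. Other folds of dim genes also varied with the processing.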
